A study of Mus musculus with 9 samples.

Results

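The mitochondrial ribosomal protein genes were taken as all genes whose symbol begins with Mrpl or Mrps followed by a digit. They numbered 77 of the 15552 genes in the count table of NRG1-treated MyC-CaP cells, and each of the 77 had enough counts to be among the 11373 genes tested. By the known composition of the mammalian mitochondrial ribosome, 50 members encode large-subunit proteins and 26 encode small-subunit proteins. Mrps30 and Mrps18a were placed with the large subunit, where their proteins sit despite their names. Mrps36, whose product is now assigned to the oxoglutarate dehydrogenase complex, was placed in neither subunit. By the lists used here, 46 members were classed as having counterparts in bacterial ribosomes and 30 as particular to mitochondria. The 30 include Mrps18a and Mrps18b, although these are also homologs of bacterial S18.

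Mitochondrial ribosomes translate the few proteins encoded by mitochondrial DNA, all of them subunits of the respiratory chain complexes or of the ATP synthase. Their RNA is made in the organelle, but every one of their proteins is encoded in the nucleus, translated in the cytosol and imported. Growth factor signaling and MYC are known to raise the production of ribosomes and mitochondria in many cell types. The mRNAs of these genes were followed here in a MYC-driven tumor line, and mitochondrial content was not measured in these data.

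MyC-CaP is a mouse prostate cancer line from a tumor driven by a human MYC transgene under a probasin promoter. All cells were starved for 6 to 12 h without serum and calcium before recombinant NRG1 (15 ng/mL), which binds the receptor HER3. RNA was sequenced from 3 biological replicates each at 0, 12 and 24 h of treatment. The 3 groups thus share the line, the transgene and the starvation, and differ in the time after NRG1. No library without NRG1 at 12 or 24 h was analysed here, so the effect of NRG1 and of longer culture in the starvation medium cannot be told apart.

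The libraries held between 28467089 and 39239760 counts. Of the luminal prostate markers, Hoxb13 was between 82.3 and 105 CPM (counts scaled to library size), while Pbsn was at most 0.060 CPM. The epithelial markers Krt8 and Cldn3 were present, at no less than 17.5 and 531 CPM, but Epcam, Cdh1 and Cldn7 were at or below 0.14 CPM and Krt18 did not exceed 0.50 CPM. Markers of immune and endothelial cells did not exceed 1.02 CPM, and of the fibroblast markers Pdgfra was between 14.9 and 17.5 CPM and Col1a1, Col1a2 and Dcn did not exceed 0.43 CPM. Replicate 3 at 12 h stood apart. Its chi-square values per degree of freedom against the other 12 h libraries were 9.92 and 10.1, while the other pairs of replicates lay between 3.75 and 7.44, so the counts of members called at 12 h and the direction of their estimates are also given without it.

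The starts of the members in the genome were examined first. The members lie on 17 chromosomes, with 11 on chromosome 11 and 8 on chromosome 17. A total of 33 of the 77, or 42.9%, have a protein-coding gene on the opposite strand whose start lies within 1000 bases, against 17.8% of the tested genes. In 18 of these, or 23.4% of members against 11.2% of tested genes, the genes start side by side and run apart, and in 15, or 19.5% against 6.55%, they run across each other's start. The starts are no more than 200 bases apart for 21 of the 33. In the pair of Mrps11 and Mrpl46, a small-subunit and a large-subunit gene, both partners are members.

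The RefSeq promoter windows of the GRCm38.p6 build, 300 bases each with 250 before the start, held 68 of the 77 members. They were searched on both strands for 9 short motifs spelled out here, of which none contains another. The ETS family core CCGGAAG was in the windows of 25 members, or 36.8%, against 21.3% of 9089 tested genes and 9.93% of all 27025 genes. The YY1 motif AAGATGGC was in 12 members, or 17.6%, against 5.53% and 3.19%. The core of the NRF1 motif, CGCATGCG, was in 7 members, or 10.3%, against 4.64% and 2.07%. The MYC E-box CACGTG was in 5 of the 68, or 7.35%, against 12.1% and 8.09%.

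Among the remaining motifs, the GC box GGGCGG was in 34 of the 68 members, against 69.9% of tested genes and 38.2% of all genes. CCAAT was in 38.2% of members against 43.8% and 41.1%, and TATAAA in 7.35% against 8.23% and 15.7%. The cyclic AMP response element TGACGTCA was in 2.94% against 3.79% and 2.03%, and the E2F motif TTTCGCGC in 1.47% against 0.79% and 0.37%. A match is a stretch of letters and was not examined for binding.

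The 150 bases upstream of the RefSeq start are shown for the 5 members in that table that passed the test against 0 h at 12 h. Of these, 4 rose and 1 fell. The RefSeq start differs from the GENCODE start, which was used for gene positions and neighbor distances. The stretch of Mrpl40 lies wholly inside its GENCODE gene, and those of Mrps33, Mrpl22 and Mrpl9 lie partly inside theirs. Capitals mark matches to CCGGAAG or CGCATGCG on either strand. The stretch of Mrps33 lies at chr6:39810937-39811086 and that of Mrpl40 at chr16:18876638-18876787, both on the minus strand. On the plus strand, that of Mrpl34 lies at chr8:71464776-71464925, that of Mrpl22 at chr11:58171514-58171663 and that of Mrpl9 at chr3:94443186-94443335.
Mrps33: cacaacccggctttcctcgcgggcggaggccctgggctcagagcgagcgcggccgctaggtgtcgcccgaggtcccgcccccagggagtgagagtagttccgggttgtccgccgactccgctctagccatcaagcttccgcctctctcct
Mrpl40: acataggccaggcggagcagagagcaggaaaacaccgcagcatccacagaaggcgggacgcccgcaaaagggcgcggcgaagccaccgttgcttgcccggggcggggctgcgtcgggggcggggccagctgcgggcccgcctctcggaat
Mrpl34: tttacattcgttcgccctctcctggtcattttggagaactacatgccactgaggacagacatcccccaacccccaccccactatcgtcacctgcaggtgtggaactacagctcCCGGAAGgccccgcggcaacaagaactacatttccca
Mrpl22: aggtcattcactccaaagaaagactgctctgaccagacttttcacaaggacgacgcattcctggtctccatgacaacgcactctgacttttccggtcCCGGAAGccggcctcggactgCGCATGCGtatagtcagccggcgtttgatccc
Mrpl9: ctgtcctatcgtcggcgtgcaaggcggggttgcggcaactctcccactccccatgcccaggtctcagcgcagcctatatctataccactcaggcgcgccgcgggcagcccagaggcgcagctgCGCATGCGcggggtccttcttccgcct
The NRF1 core is in the window of Mrpl22, which rose, and of Mrpl9, which fell. Mrps33 and Mrpl40 have no capitals in these bases, although the whole window of Mrps33 holds a match to CCGGAAG outside the stretch shown. Mrpl4, the other member that fell, was not among the 68 matched members, and neither were Mrpl13, Mrpl15, Mrpl19, Mrpl38, Mrpl54, Mrps28, Mrps34 and Mrps35.

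The level of the members before NRG1 was next evaluated. Per kilobase of annotated exon, the members at 0 h ranged from 2.80 to 71.3 CPM with a median of 13.4, a 25.5-fold span. The highest was Mrps21, at 70.4, 73.3 and 70.2 CPM per kilobase in the 3 libraries, followed by Mrpl34 at 70.2, 67.4 and 68.2. The lowest library of Mrps21 was just above the highest of Mrpl34, by less than the spread among the libraries of either gene. Mrpl12, the stalk protein that is also known to bind the mitochondrial RNA polymerase, came next at 58.3, 55.2 and 58.3 CPM per kilobase, below both in every library.

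At the low end, Mrps10 was at 2.59, 2.86 and 2.94 CPM per kilobase, Mrpl23 at 3.15, 3.01 and 3.14, and Mrpl47 at 3.16, 3.11 and 3.56. Values of Mrpl23 and Mrpl47 overlapped, and those of Mrps10 lay below both. The length is that of all annotated exons together, which for Mrps10 reaches 8079 bases and for Mrps21 739 bases, so genes with long, rarely used exons appear lower. At 12 h the span was from 2.86 to 77.9 CPM per kilobase and at 24 h from 2.83 to 75.8, with the highest mean in Mrpl34 at both. At 12 h its libraries (75.1, 81.5 and 77.1) overlapped those of Mrps21 (82.1, 73.3 and 70.3), so the first place is not resolved there.

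To determine if the share of these mRNAs as a whole changed over the time after NRG1, their counts were summed. Shares and CPM are relative to the other genes of a library, and RNA per cell was not measured. The 77 members took 0.298% ± 0.0057 (SD, n = 3) of all counts before treatment, 0.303% ± 0.0094 after 12 h and 0.297% ± 0.0044 after 24 h. After scaling by the trimmed mean of M values (TMM), their summed level was 3004, 2916 and 3006 CPM at 0 h, 3096, 3079 and 2958 CPM at 12 h, and 2993, 2920 and 2970 CPM at 24 h. The 3 time points overlapped, with replicates 1 and 2 at 12 h above every other library and replicate 3 at 12 h within the range of the 0 h libraries.

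**Figure D1:**
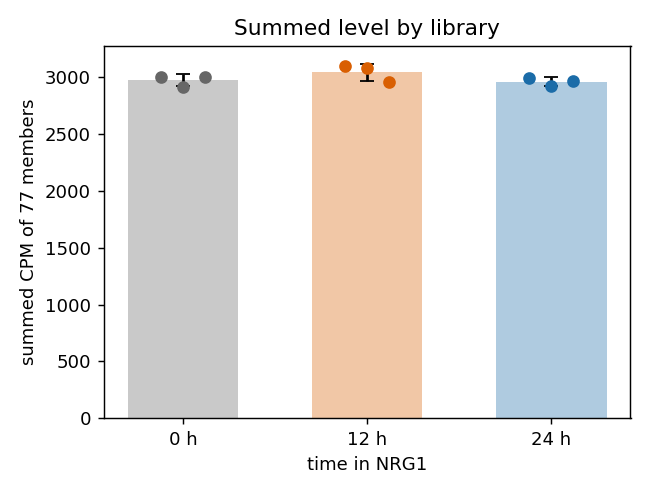
Summed CPM of the 77 members in each library (points), with the mean (bar) and SD (error bar) of 3 libraries at each time. The 9 libraries lie between 2916 and 3096 CPM, and the time points overlap.

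Individual members moved little. Against 0 h, log2 fold changes ran from -0.14 for Mrpl4 to 0.24 for Mrps33 at 12 h and from -0.14 for Mrpl9 to 0.19 for Mrpl40 at 24 h. No member passed an adjusted p of 0.05 with a fold of at least 1.5 by edgeR's quasi-likelihood test, 0 of 77 at 12 h against 0 h, at 24 h against 0 h and at 24 h against 12 h, where 2.29%, 2.27% and 0.29% of all tested genes did. By DESeq2 that count was 0 in each comparison as well. At an unadjusted p under 0.05 there were 13, 9 and 6 members by edgeR and 9, 6 and 5 by DESeq2. The edgeR counts are 16.9%, 11.7% and 7.79% of members, where 36.9%, 30.2% and 20.1% of all tested genes had such a p.

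How far these data bound a change relative to the other genes was read from the 95% intervals. A change shared by most genes is removed by the scaling and would not show in them. The interval lay within 1.25-fold of no change in either direction for 73 of the 77 members at 12 h, or 94.8%, and for all 77 at 24 h against 0 h. For the 6532 genes with mean levels in the range of the members, from 9.78 to 109.8 CPM, the shares were 76.2% and 81.8%. The 4 members whose interval at 12 h reached past 1.25-fold were Mrps33, Mrpl40, Mrpl22 and Mrps34, each on the higher side. Mrps34 shares 77.8% of its exonic bases with neighboring genes, so its counts are uncertain.

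**Figure D2:**
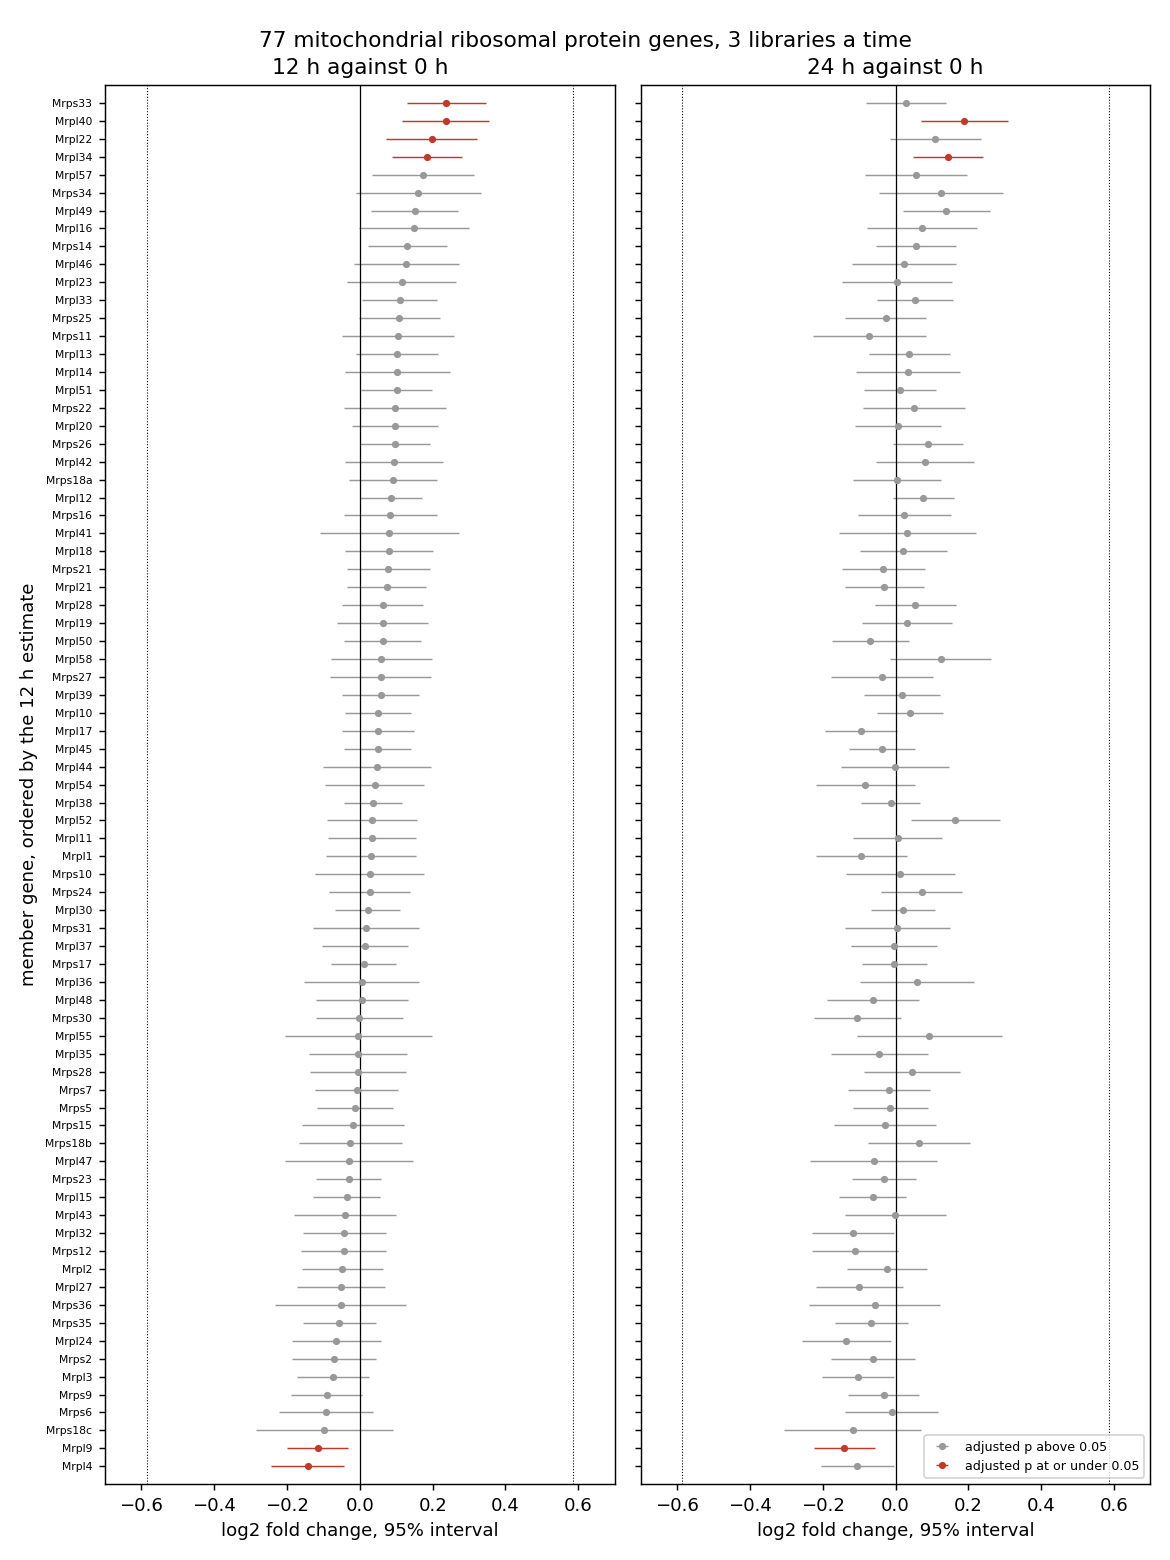
Log2 fold change with its 95% interval for each of the 77 members at 12 h (left) and 24 h (right) against 0 h, ordered by the 12 h estimate. Red points passed an adjusted p of 0.05, 6 at 12 h and 3 at 24 h, and the dotted lines mark a fold of 1.5, which no interval reaches.

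Without the fold threshold, 4 members rose at 12 h, or 5.19%, where 13.6% of all tested genes did, and 2 fell, or 2.60%, where 11.9% of all tested genes did. At 24 h against 0 h, 2 members rose against a background of 9.67% and 1 fell against 7.76%. Among the genes in the members' range of levels, 27.2% passed in either direction at 12 h and 19.2% at 24 h. Leaving out replicate 3 at 12 h gave 9 members higher and 0 lower at 12 h by edgeR, where 13.5% of all genes tested in that fit were higher and 10.5% lower, and 0 members were lower at an unadjusted p under 0.05. The 9 were the 4 found with all libraries plus Mrpl16, Mrpl49, Mrpl51, Mrpl57 and Mrps34.

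Mrps33, a small-subunit protein particular to mitochondria, had the largest rise. Its gene lies at chr6:39801804-39810988 on the minus strand. It was at 33.3, 33.9 and 36.0 CPM at 0 h, at 42.7, 39.5 and 39.5 CPM at 12 h, and at 35.2, 34.3 and 35.8 CPM at 24 h. All 12 h libraries were above all others, and the 24 h libraries lay within the 0 h range. The rise at 12 h was 1.18-fold, a log2 fold change of 0.24 ± 0.052 (SE) with an edgeR adjusted p of 0.00275, and against 12 h the gene fell by 0.21 ± 0.052 at 24 h (adjusted p = 0.0262). The rise passed in every fit that left out a library, whereas the later fall did not pass without replicate 1 at 12 h (-0.17) or without any of the 24 h replicates (-0.20 to -0.22).

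Mrpl40, another mitochondria-specific protein, of the large subunit, rose at both times. Its gene, at chr16:18872018-18876862 on the minus strand, starts 175 bases from the histone chaperone gene Hira. The libraries gave 27.0, 26.8 and 24.9 CPM at 0 h, 32.1, 31.1 and 29.4 CPM at 12 h, and 30.9, 30.0 and 28.9 CPM at 24 h. Every library after NRG1 was above every library before it. On the log2 scale the change was 0.24 ± 0.056 after 12 h (edgeR adjusted p = 0.00546) and 0.19 ± 0.056 after 24 h (adjusted p = 0.0279), while Hira was at 0.037 ± 0.057 at 12 h and did not pass. The 24 h call was lost without 0 h replicate 3 (0.16), 24 h replicate 1 (0.17) or 24 h replicate 2 (0.19).

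Mrpl34, a large-subunit protein with a bacterial counterpart, showed the same order of time points. It lies at chr8:71464959-71465747 on the plus strand. Its level was 42.6, 40.9 and 41.4 CPM at 0 h, 45.6, 49.5 and 46.8 CPM at 12 h, and 46.0, 46.1 and 45.9 CPM at 24 h, so the treated libraries did not overlap those at 0 h. Its log2 fold change was 0.18 ± 0.046 after 12 h (edgeR adjusted p = 0.00708) and 0.14 ± 0.046 after 24 h (adjusted p = 0.0369). The 24 h call was lost without 0 h replicate 2 or 3 and without any of the 24 h replicates, with estimates from 0.14 to 0.15.

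Mrpl22, which lines the tunnel through which the new protein leaves the ribosome, rose at 12 h. It lies at chr11:58171661-58179565 on the plus strand. Levels were 24.5, 22.4 and 23.4 CPM at 0 h, 26.6, 27.7 and 26.1 CPM at 12 h, and 25.6, 23.8 and 26.2 CPM at 24 h. The 12 h libraries were above those at 0 h, while a 24 h library fell among the 0 h values. This was a log2 fold change of 0.20 ± 0.059 after 12 h (edgeR adjusted p = 0.0212) and 0.11 ± 0.059 after 24 h (adjusted p = 0.233). The 12 h call was lost without replicate 2 of the 0 h group or of the 12 h group, both at 0.17.

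The members that fell were both large-subunit proteins with bacterial counterparts. Mrpl4, near the exit tunnel, lies at chr9:21002738-21008839 on the plus strand and was at 61.4, 56.4 and 60.1 CPM at 0 h, 53.4, 56.3 and 51.3 CPM at 12 h, and 54.5, 55.1 and 55.7 CPM at 24 h. The highest 12 h library was just under the lowest 0 h library. Its log2 fold change was -0.14 ± 0.047 after 12 h (edgeR adjusted p = 0.0340) and -0.10 ± 0.047 after 24 h (adjusted p = 0.143). The 12 h call was lost without 0 h replicate 1 or 3, 12 h replicate 1 or 3, or 24 h replicate 2, with estimates from -0.14 to -0.10.

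Mrpl9, at chr3:94443318-94451130 on the plus strand, was at 82.0, 80.9 and 77.3 CPM at 0 h, 75.4, 73.9 and 72.2 CPM at 12 h, and 72.5, 73.4 and 72.0 CPM at 24 h. All treated libraries were below all 0 h libraries. Its log2 fold change was -0.12 ± 0.040 after 12 h (edgeR adjusted p = 0.0408) and -0.14 ± 0.040 after 24 h (adjusted p = 0.0208). Of its exonic bases 5.81% overlap Oaz3. The 12 h call held only when 0 h replicate 3 was the library left out and was otherwise lost, at -0.13 to -0.090, and the 24 h call was lost without 0 h replicate 1 or 2 or any of the 24 h replicates, at -0.14 to -0.12.

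**Figure D3:**
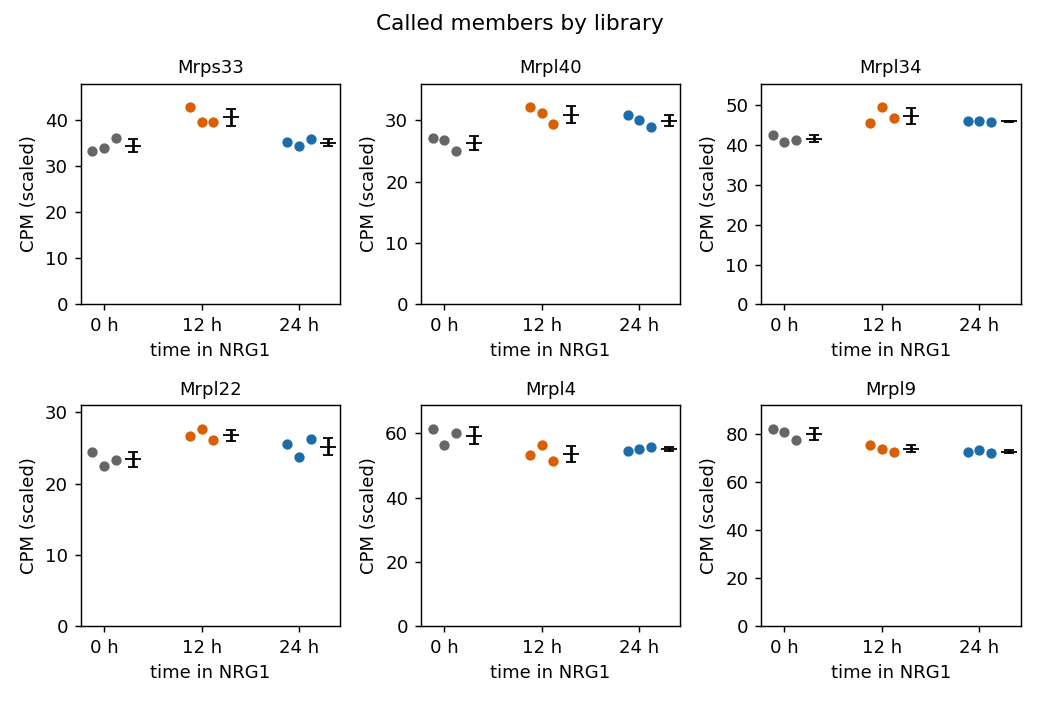
TMM-scaled CPM of the 6 members that passed the test at 12 h, by library (points), with mean and SD of 3 libraries beside them. In Mrps33 the 24 h libraries return to the 0 h range, whereas in Mrpl40, Mrpl34 and Mrpl9 the libraries at both later times stay clear of those at 0 h.

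Members with special roles were evaluated whatever their change, and none passed an adjusted p of 0.05 in any comparison. Mrpl12 was at 89.3, 84.5 and 89.4 CPM at 0 h, 92.1, 96.2 and 90.8 CPM at 12 h, and 94.7, 91.1 and 91.7 CPM at 24 h. Its values after NRG1 were all above those before it, but the log2 fold changes of 0.086 ± 0.040 at 12 h and 0.077 ± 0.040 at 24 h had edgeR adjusted p-values of 0.133 and 0.215. Of its exonic bases 13% overlap another gene. Mrpl58, a peptidyl-tRNA hydrolase that rescues stalled ribosomes, was at 0.059 ± 0.066 at 12 h and 0.12 ± 0.066 at 24 h on the log2 scale.

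The 3 homologs of bacterial S18 gave separate estimates. At 12 h the log2 fold change of Mrps18a was 0.092 ± 0.057, that of Mrps18b -0.026 ± 0.067 and that of Mrps18c -0.097 ± 0.089, with intervals that overlap. The difference between them was not tested. Of the exonic bases of Mrps18b and Mrps18c, 30.5% and 23.2% overlap another gene, so their counts are uncertain, while those of Mrps18a overlap none. Mrps12, at the decoding center, was at -0.045 ± 0.056, and Mrps30 at -0.0013 ± 0.056.

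Mrps36 was at -0.052 ± 0.085 and Mrpl41 at 0.082 ± 0.090, Mrpl33 at 0.11 ± 0.049 and Mrps21 at 0.079 ± 0.054, all at 12 h against 0 h. The processed pseudogenes Mrps36-ps1, Mrps36-ps2 and Mrps36-ps3, and 1 each of Mrpl48 and Mrpl23, resemble their parents, so counts of these 3 members may be split or lost. The members with the lowest levels per length, Mrps10, Mrpl23 and Mrpl47, had log2 fold changes at 12 h of 0.027 ± 0.071, 0.11 ± 0.071 and -0.031 ± 0.083. Of the exonic bases of Mrpl47, 24.2% overlap neighboring genes.

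The direction of the estimates was next summarized over the members. At 12 h against 0 h, 51 of 77 estimates were above 0 with a median of 0.041, where the median of all tested genes was -0.0028, and 48 to 52 were above 0 under the other scalings, the unfiltered fit and DESeq2. By subunit, 37 of 50 large-subunit members were above 0 (median 0.050) and 14 of 26 small-subunit members (median 0.014). Of the 30 mitochondria-specific members 25 were above 0 (median 0.058), and of the 46 with bacterial counterparts 26 were (median 0.024). Most of these members did not pass the test individually. Without replicate 3 at 12 h, 58 of 77 estimates were above 0 with a median of 0.071. Without replicate 2 at 0 h 47 were above 0 (median 0.030), and without replicate 2 at 12 h 47 were (median 0.031). Of all tested genes, 49.1% were above 0 in the fit of all libraries.

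At 24 h against 0 h the estimates were even, with 39 of 77 above 0 and a median of 0.0040, and the sign of that median changed when the second 0 h library was left out (-0.021), and likewise for the first (-0.0040) and the third (-0.00094) of the 24 h libraries. For 24 h against 12 h, 64 of 77 estimates were below 0 with a median of -0.040, and 49 of 77 when counts were scaled by library totals. That median was -0.022 with 52 below 0 without replicate 1 at 12 h, -0.020 with 48 without replicate 2, and -0.068 with 66 without replicate 3. Of all tested genes, 5584 of 11373 were below 0 in the fit of all libraries, with a median of 0.0023. By edgeR 0 members rose and 1, Mrps33, fell between these times, where 1.97% of tested genes rose and 3.06% fell. Both comparisons with 12 h use the same 12 h libraries, so their directions are not independent. DESeq2 also gave 0 risers here. Over the 3 time points at once, 4 members differed, Mrps33, Mrpl40, Mrpl34 and Mrpl9, or 5.19%, against 27.4% of all tested genes. That count was 11 without replicate 3 at 12 h, where the share of all tested genes is not given here, so the 2 counts cannot be compared against it.

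**Figure D4:**
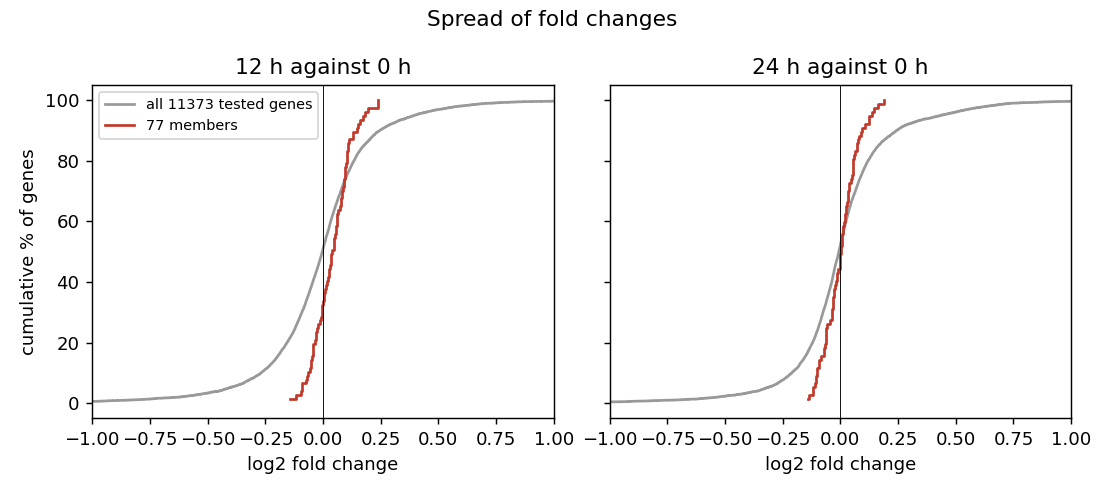
Cumulative share of genes by log2 fold change for the 77 members (red) and all 11373 tested genes (gray) at 12 h (left) and 24 h (right) against 0 h. The members span -0.14 to 0.24 at 12 h and -0.14 to 0.19 at 24 h, a steeper curve than that of all genes, whose values beyond 1 in either direction are not drawn.

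These 33 members were set beside the opposite-strand gene that starts next to them, called the partner here. Of the 33 partners, 28 were tested and were not members, 17 of them running apart from the member and 11 across its start. At 12 h, 7 of the 28 partners rose and 5 fell by edgeR, where 13.6% of all tested genes rose and 11.9% fell, while of the 28 members beside them 1 rose, Mrpl40, and 0 fell. At 24 h, 4 partners rose and 4 fell (9.67% and 7.76% of all tested genes), against 1 and 0 members. DESeq2 likewise gave 0 falls among these 28 members at both times, and 4 and 3 of them had an unadjusted p under 0.05 by edgeR at 12 and 24 h, a p reached by 36.9% and 30.2% of all tested genes.

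The partners that rose at 12 h were Mtbp, Eme1, Ska3, Ncapd2, Rab6a, Psma2 and Tcp1, and the first 4 of these also rose at 24 h. Ska3, a kinetochore gene whose start is 49 bases from that of Mrpl57, had a log2 fold change of 0.41 ± 0.084 at 12 h and 0.61 ± 0.083 at 24 h, where Mrpl57 was at 0.17 ± 0.066 and 0.057 ± 0.066. Mtbp, 340 bases from Mrpl13 and involved in starting DNA replication, was at 0.51 ± 0.065 and 0.52 ± 0.065, where Mrpl13 was at 0.10 ± 0.053 and 0.038 ± 0.053. Eme1, a subunit of a DNA repair nuclease 197 bases from Mrpl27, was at 0.46 ± 0.12 and 0.63 ± 0.12, where Mrpl27 was at -0.051 ± 0.057 and -0.099 ± 0.057.

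The condensin gene Ncapd2, 100 bases from Mrpl51, was at 0.24 ± 0.045 and 0.40 ± 0.045, with Mrpl51 at 0.10 ± 0.046 and 0.012 ± 0.046. Of the exonic bases of Mrpl27 and Mrpl13, 7.61% and 4.16% overlap the partner itself, Eme1 and Mtbp, so counts may be shared within these pairs, and 2.15% of those of Mrpl51 overlap the microRNA gene Mir3098. In these 4 pairs the partner passed the test at both times and the member at neither. Other partners fell. Cyb5rl, 120 bases from Mrpl37, was at -0.37 ± 0.096 and -0.39 ± 0.096, with Mrpl37 at 0.014 ± 0.056 and -0.0034 ± 0.056, and Pnpla7, 935 bases from Mrpl41, was at -0.47 ± 0.081 and -0.29 ± 0.079. The difference between a member and its partner was not tested, and these pairs were chosen for the change of the partner.

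**Figure D5:**
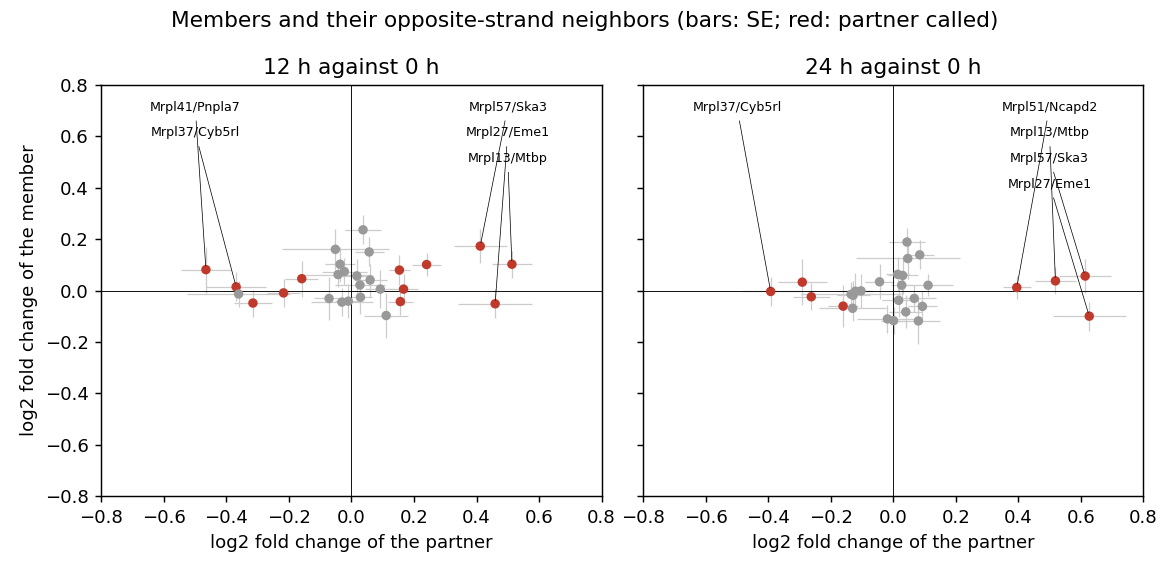
Log2 fold change of 28 members (vertical) against that of the opposite-strand gene starting within 1000 bases of each (horizontal), at 12 h (left) and 24 h (right) against 0 h, with SE bars. Partners in red passed an adjusted p of 0.05 and spread from -0.47 to 0.63, while the members stay between -0.12 and 0.24.

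Other genes of mitochondrial translation were evaluated from lists of the same process. Of 5 ribosomal proteins with other symbols, Chchd1 rose by 12 h (log2 fold change 0.18 ± 0.056, edgeR adjusted p = 0.0236), and Dap3, a GTP-binding small-subunit protein, fell from 12 to 24 h by 0.14 ± 0.035 (adjusted p = 0.0278). Ptcd3, Aurkaip1 and Gadd45gip1 were at 0.045 ± 0.048, 0.048 ± 0.042 and 0.065 ± 0.070 at 12 h. Of 23 assembly factors, 1 passed at each time. Mettl17 fell at 12 h, at -0.24 ± 0.075, and the methyltransferase Tfb1m rose at 24 h, at 0.29 ± 0.077.

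Of 15 translation factors and related genes, 1 fell at each time, the membrane insertase Oxa1l at 12 h (-0.19 ± 0.045) and the initiation factor Mtif3 at 24 h (-0.27 ± 0.069). Of 17 mitochondrial aminoacyl-tRNA synthetases, Yars2 and Vars2 rose at 12 h and Pars2 fell, at 0.25 ± 0.054, 0.14 ± 0.043 and -0.28 ± 0.094. Of 10 genes for transcription and replication of mitochondrial DNA, 1 rose at 12 h, Tfam, which packages that DNA, at 0.20 ± 0.045. Of the 76 cytosolic ribosomal protein genes tested, 1 passed at 12 h, and it fell, with a median log2 fold change of -0.011 over the 76.

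The mRNAs that mitochondrial ribosomes translate were also evaluated. Of 13 protein-coding genes of mitochondrial DNA, 7 fell at 12 h and the same 7 at 24 h by edgeR, namely mt-Co1, mt-Cytb, mt-Nd1, mt-Nd2, mt-Nd4, mt-Nd5 and mt-Nd6. Their log2 fold changes ran from -0.37 for mt-Nd4 to -0.30 for mt-Co1 at 12 h, and from -0.26 for mt-Cytb to -0.15 for mt-Co1 at 24 h. The other 6, mt-Co2, mt-Atp8, mt-Atp6, mt-Co3, mt-Nd3 and mt-Nd4l, lie side by side at bases 7013 to 10173 of mitochondrial DNA. They were at or below 5.87 CPM in every library, and did not pass. How reads matching several genes were treated is not given in the sources used here. The counts of these 6 genes may therefore be incomplete, as may the share from mitochondrial DNA, and this was not tested. The mean share of counts from mitochondrial DNA went from 1.46% before treatment to 1.16% after 12 h and 1.27% after 24 h, beside 0.297% to 0.303% for the members. How poly(A) selection acts on these RNAs was not tested.

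As reference points within the same libraries, all 10 of 10 S phase genes rose at both times by edgeR, with median log2 fold changes of 0.59 at 12 h and 0.52 at 24 h. The mouse Myc gene, which encodes a known activator of ribosome and mitochondrial genes, was at -0.16 ± 0.070 at 12 h and 0.080 ± 0.069 at 24 h (edgeR adjusted p = 0.113 and 0.481). How reads of the human transgene were counted was not given in the sources used here, so the counts of Myc may include some of them.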

How the data were processed

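MyC-CaP RNA from 9 cultures was sequenced in mRNA libraries (paired ends, 150 bp). Cutadapt, STAR on GRCm38.p6 and featureCounts were used by the authors to trim, align and count. The deposited values are raw counts, not normalized. Strand setting and treatment of reads matching several genes are not given in the sources used here. Groups followed the time in the labels.

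Counts were filtered (filterByExpr), scaled by TMM and fitted over 9 libraries with edgeR 4.0.16 under R 4.3.3 (glmQLFit, glmQLFTest), with Benjamini-Hochberg adjustment over 11373 genes and calls at an adjusted p of 0.05. This was a quasi-likelihood F-test, and SE follow from the fold change and F. Each p-value sets a difference between time points against the spread among these cultures. The labels call them biological replicates, while the authors describe plating the cells in triplicate wells. That spread may therefore be among parallel wells of the same line. DESeq2 1.42.0, other scalings, no filter, a replicate block and leaving out each library were alternatives. The procedure was tested on simulated data. Lengths, overlaps and neighbors came from GENCODE vM21 (GRCm38), and promoters from RefSeq.

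The members, lists and rules were chosen with earlier results of these data known. Named were the 6 largest called rises and falls against 0 h, up to 4 between 12 and 24 h, any member past 1.5-fold, the 3 highest and lowest per kilobase, and members with special roles; from other lists, up to 3 called genes each. Partners were named after their values were seen. Mrpl53 was not analysed here, and some genes chosen by these rules are not reported here.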

Additional observations from a re-analysis of the deposited data

Results flagged for a closer look

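Mrps33 differed between the later time points: its effect against 0 h was 0.24 at 12 h and 0.028 at 24 h on the log2 scale, and the test of the difference itself, 24 h against 12 h, gave -0.21 with an edgeR adjusted p of 0.0262. All 3 libraries at 12 h lay above all 3 at 24 h. The difference no longer passed without replicate 1 at 12 h or without any 1 of the 24 h replicates, where it was -0.17 to -0.22.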

How the results depend on the processing

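Of the gene-level values recomputed under the alternatives, 889 kept their direction and side of the threshold, 36 kept their direction but lost the call, and 35 changed sign, none of them in a member and comparison that passed the test. On the log2 scale, Mrps30 at 12 h against 0 h was at 0.00046 without the filter and 0.00014 by DESeq2, and with counts scaled by library totals Mrpl12 was at 0.0048 and Mrps36 at 0.0083 at 24 h against 12 h. Over the fits that left out a library, signs changed at 12 h against 0 h in Mrps30 (-0.036 to 0.047), Mrps18b (-0.090 to 0.028), Mrps36 (-0.089 to 0.0044), Mrps10 (-0.021 to 0.088) and Mrpl47 (-0.092 to 0.052). At 24 h against 0 h they changed in Mrps18a (-0.0100 to 0.020), Mrps18b (-0.0026 to 0.12), Mrps36 (-0.14 to 0.040), Mrpl41 (-0.018 to 0.098), Mrps10 (-0.039 to 0.056), Mrpl23 (-0.044 to 0.050), Mrpl47 (-0.095 to 0.010) and the members' median (-0.021 to 0.018). At 24 h against 12 h they changed in Mrpl12 (-0.031 to 0.019), Mrps18c (-0.083 to 0.038), Mrps36 (-0.090 to 0.085), Mrpl41 (-0.096 to 0.0042), Mrps10 (-0.071 to 0.035) and Mrpl47 (-0.11 to 0.032). At 12 h against 0 h, members lower were 2, and 1 without the filter, 0 when only the 2 groups were fitted and 1 by DESeq2. Members lower at 24 h against 0 h were 1, and 2 without the filter and 2 with a replicate block. Same-numbered libraries had correlated deviations of only -0.074 to 0.13 and share a number alone. Outside the 500 most abundant genes, members took 0.527%, 0.536% and 0.525% of counts at 0, 12 and 24 h. Leaving out each library gave 3 to 9 members higher and 0 to 1 lower at 12 h. At 24 h it gave 0 to 3 higher and 0 to 1 lower, and 0 to 2 were lower at 24 h against 12 h. The number differing among time points was 3 to 11, and the share of all tested genes in those fits is not given here. The highest counts at 12 h and over time came without replicate 3 at 12 h. Members higher at 24 h were 0 without replicate 1 or without replicate 2 at 24 h. The count past 1.5-fold was 0 throughout. The causes were not tested. The rises of Mrps33, Mrpl40 and Mrpl34 at 12 h passed in every alternative listed. With 3 libraries a time, the members' median SE was 0.057 on the log2 scale, which limits what could be detected.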
